A study of Mus musculus with 28 samples.

Results

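Pecam1, Cdh5, Kdr, Flt1, Tek, Vwf, Vcam1, Icam1, Sele and Selp were followed as the endothelial and leukocyte adhesion genes of mouse mesothelioma tumors. These 10 genes were chosen by name as endothelial identity genes (the first 6) and adhesion molecules for leukocytes (the last 4), out of 55341 genes in the count tables. Earlier results of these data were known at the choice, so shares of all genes set beside the 10 are a description. All 10 passed the filter on low counts in each table, and each met its level in all 4 PBS tumors, so none was tested only through the groups where it was high.

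Endothelial cells line blood vessels, and blood leukocytes leave the circulation by binding to them in steps. P-selectin (Selp) and E-selectin (Sele) catch rolling leukocytes through sugars carried on PSGL-1 (Selplg) and other ligands, after which ICAM-1 (Icam1) and VCAM-1 (Vcam1) hold them firmly through leukocyte integrins. PECAM-1 (Pecam1) and VE-cadherin (Cdh5) sit at the junctions between endothelial cells that leukocytes cross. VEGFR2 (Kdr) and VEGFR1 (Flt1) are receptors for vascular endothelial growth factors, TIE2 (Tek) is the receptor for angiopoietins, and von Willebrand factor (Vwf) is stored with P-selectin in endothelial granules and captures platelets. TNF and interleukin-1 are known to induce Sele, Vcam1 and Icam1 through NF-kB. Vcam1 and Icam1 are also expressed by leukocytes, fibroblasts and other cells, Pecam1 by platelets and leukocytes, and Vwf and Selp by megakaryocytes and platelets.

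Icam1, Sele and Selp are shown here by the sequence just upstream of their RefSeq start because their levels differed between treatments in different ways (250 bases each from RefSeq, build GRCm38.p6, plus strand, 5′ to 3′). Capitals mark matches to GGNNNTTCC, the shared core of many NF-kB sites, on either strand, and to the TATA box letters TATAAA. The Icam1 window is chr9:21015690-21015939, the Sele window chr1:164047984-164048233 and the Selp window chr1:164115014-164115263. The RefSeq start of Icam1, 21015940, lies 45 bases upstream of the GENCODE start given with its levels, while those of Sele and Selp are the same in both.
Icam1: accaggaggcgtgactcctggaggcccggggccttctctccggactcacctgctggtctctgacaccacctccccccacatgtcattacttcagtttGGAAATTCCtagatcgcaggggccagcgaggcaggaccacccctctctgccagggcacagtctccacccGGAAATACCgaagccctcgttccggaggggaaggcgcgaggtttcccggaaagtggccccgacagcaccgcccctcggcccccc
Sele: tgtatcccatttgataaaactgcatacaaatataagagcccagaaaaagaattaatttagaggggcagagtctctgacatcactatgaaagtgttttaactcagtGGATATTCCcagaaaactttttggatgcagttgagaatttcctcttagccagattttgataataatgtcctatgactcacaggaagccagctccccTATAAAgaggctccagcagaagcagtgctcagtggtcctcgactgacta
Selp: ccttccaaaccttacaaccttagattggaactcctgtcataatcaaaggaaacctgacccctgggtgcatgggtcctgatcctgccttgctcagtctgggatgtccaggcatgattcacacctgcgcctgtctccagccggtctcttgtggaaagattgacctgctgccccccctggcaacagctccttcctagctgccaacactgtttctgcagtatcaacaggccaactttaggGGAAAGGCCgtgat
GGNNNTTCC, searched on both strands, was present in 15.6% of 27025 promoter windows of 250 bases, and TATAAA in 13.0%. The Icam1 window held GGAAATTCC, 153 to 145 bases before the RefSeq start and matching on both strands, and a reverse-strand match, 84 to 76 bases before the start. Sele held 1 match to GGNNNTTCC, 145 to 137 bases before the start, and TATAAA 49 to 44 bases before it. The Selp match lay on the reverse strand, 14 to 6 bases before the start. These matches are descriptions of the letters only, and the motifs were chosen after the sequences had been seen. Promoter windows of 6 of the 10 genes were in the table used: Kdr, Flt1, Tek, Icam1, Sele and Selp.

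RNA was sequenced from 28 whole tumors, each from a different mouse. All tumors came from the AB1-HA line, a murine mesothelioma line, grown under the skin of BALB/c.AusBP mice, which the methods give as females. Treatment began at a set tumor size, and tumors were taken at day 7. PBS tumors (n = 4) received vehicle. ICB tumors (n = 5) received immune checkpoint blockade, 1 dose of anti-CTLA-4 and 3 doses of anti-PD-L1 at 100 µg each, intraperitoneally. The 5-FU group (n = 5) received 75 mg/kg of the antimetabolite 5-fluorouracil intravenously, and the Cisplatin group (n = 4) received 6 mg/kg of the DNA-crosslinking drug cisplatin intraperitoneally. The 5-FU+ICB group (n = 5) and the Cisplatin+ICB group (n = 5) received both kinds of treatment, started on the same day. PBS and ICB tumors are shared by the 5-FU table and the Cisplatin table, so comparisons with them share controls. The model is 1 transplanted line, and the RNA comes from tumor, vessel, stromal and blood cells together.

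Library totals ran from 23541485 to 33950555 counts. Levels are given in CPM, counts scaled by normalized library size, and on that scale 3 counts correspond to 0.0822 to 0.159 CPM. Within groups, tumors correlated over genes with Spearman's rho of 0.817 to 0.990. Cisplatin+ICB tumor 1 stood apart for these genes: it was the lowest of all 28 tumors for 8 of them, the exceptions being Vwf and Icam1. The tissue itself was checked by 20 other endothelial markers, of which all were tested, including Cldn5, Tie1, Plvap and Emcn. Of the mesothelial tumor markers, Msln had a mean of 311 CPM in PBS tumors, Wt1 was near the floor at 0.11 CPM, and Upk3b had no count in any ICB, 5-FU or 5-FU+ICB tumor.

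The genes differ widely in level per length. In PBS tumors, Vcam1 was the most abundant per length at 10.9 ± 0.683 CPM per kb of exon (SD, n = 4), followed by Cdh5 at 7.70 ± 3.37, Pecam1 at 6.19 ± 0.706, Icam1 at 5.36 ± 0.0720 and Sele at 3.69 ± 0.255. The Cdh5 values overlapped those of Vcam1, Pecam1 and Icam1, while all PBS tumors were higher for Pecam1 than for Icam1. The receptors were lower, with Kdr at 1.75 ± 0.844, Flt1 at 1.16 ± 0.604 and Tek at 0.746 ± 0.187 CPM per kb. Selp at 0.454 ± 0.165 and Vwf at 0.150 ± 0.0848 CPM per kb were the lowest. The ranges of Kdr, Flt1, Tek and Selp each overlapped the next in this order. In 5-FU+ICB tumors Vcam1 reached 60.3 ± 17.7 CPM per kb and Icam1 35.6 ± 17.9 (n = 5), while Vwf was 1.59 ± 1.15.

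**Figure D1:**
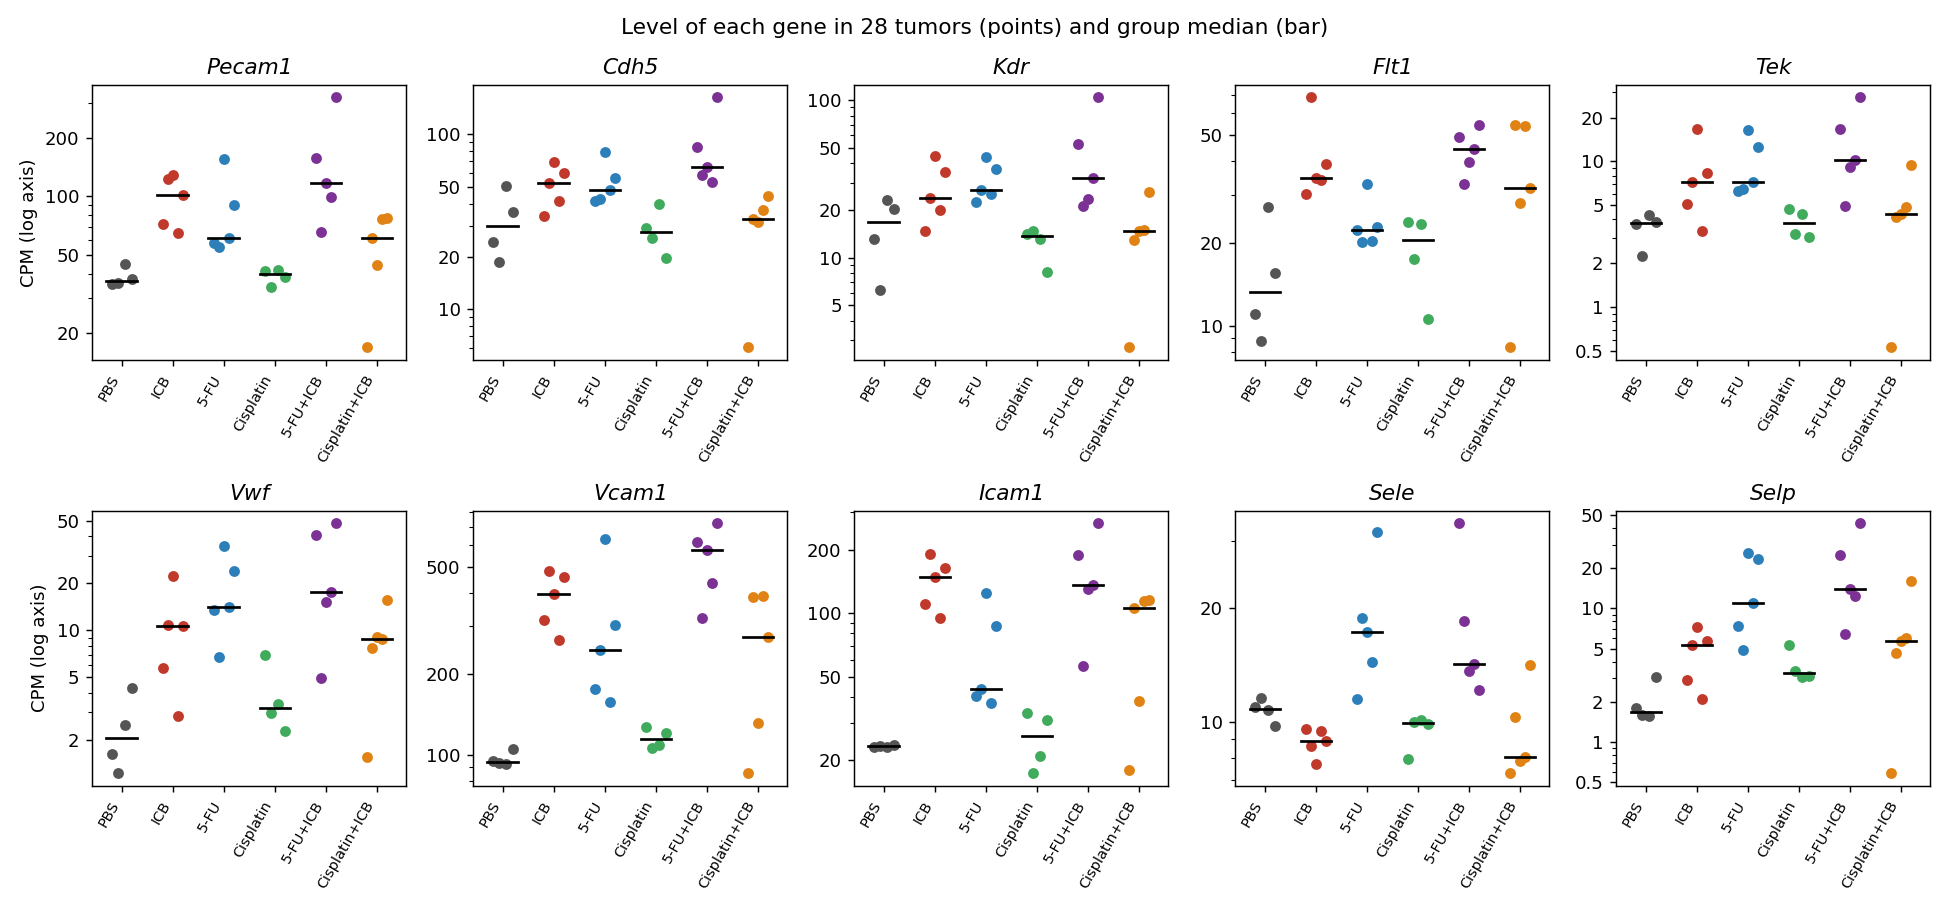
Level of each gene in CPM on a log axis by treatment group, one point per tumor (28 tumors) and a bar at the group median. Vcam1 and Icam1 in PBS tumors lie close together (92.5 to 105 and 23.1 to 23.8 CPM), Sele in ICB tumors lies below every PBS tumor, and Cisplatin+ICB tumor 1 is the lowest point in 8 of the 10 panels.

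Pecam1, on chromosome 11 (GRCm38, 106654217 to 106750628), rose with ICB and with 5-FU. Its level in the 4 PBS tumors was 35.6, 35.8, 45.0 and 37.8 CPM, against 72.6, 123, 129, 64.9 and 102 CPM in ICB tumors and 57.4, 55.3, 155, 61.3 and 90.0 CPM in 5-FU tumors. Every ICB and 5-FU tumor was above every PBS tumor. In 5-FU+ICB tumors it was 158, 65.4, 118, 98.9 and 322 CPM. Relative to PBS, the log2 fold change was 1.38 ± 0.41 with ICB (SE, edgeR quasi-likelihood test, Benjamini-Hochberg adjusted p = 0.0121), 1.14 ± 0.40 with 5-FU (edgeR adjusted p = 0.0450) and 2.02 ± 0.42 with 5-FU+ICB (edgeR adjusted p = 0.00172). The call with 5-FU was lost when any of the PBS tumors or 5-FU tumor 3 or 5 was left out, with edgeR adjusted p between 0.0370 and 0.139 over the 9 tumors. Cisplatin tumors, at 41.5, 34.4, 42.0 and 38.8 CPM, overlapped PBS tumors. Cisplatin+ICB tumors were at 16.8, 61.0, 44.3, 76.5 and 77.6 CPM, and without tumor 1 the log2 fold change over PBS was 0.84 (edgeR adjusted p = 0.00891), against 0.53 with it (edgeR adjusted p = 0.356) and 0.38 without tumor 5 (edgeR adjusted p = 0.627). In bulk tumors, fewer cells of a type and less RNA per cell cannot be told apart, and this holds for every gene below.

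Cdh5, on chromosome 8 (104101625 to 104144511), separated the treatments less sharply. PBS tumors held 24.4, 18.5, 50.7 and 35.8 CPM, and ICB tumors 34.0, 52.7, 69.8, 41.7 and 60.2 CPM. In 5-FU tumors it was 41.3, 42.6, 79.0, 47.8 and 56.0 CPM. PBS tumor 3 was within both ranges. The combination 5-FU+ICB gave 84.1, 58.8, 64.9, 53.4 and 162 CPM, above every PBS tumor, with a log2 fold change of 1.44 ± 0.34 (edgeR adjusted p = 0.00357). Cisplatin tumors were at 29.3, 25.7, 39.7 and 19.6 CPM and Cisplatin+ICB tumors at 6.04, 32.9, 31.6, 37.0 and 44.4 CPM, both overlapping PBS. With ICB alone (0.72 ± 0.33) and with 5-FU alone (0.76 ± 0.33) the edgeR adjusted p was 0.0883 and 0.0981; without PBS tumor 3 both passed, at 0.0378 and 0.0426, and without another tumor they reached 0.237 and 0.269. An antisense gene, Gm29682, overlaps Cdh5, and the sources used here do not state whether counting used strand.

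Of the receptors, Kdr (chromosome 5, 75932827 to 75978458) was at 13.2, 6.24, 23.2 and 20.5 CPM in PBS, 14.8, 23.8, 44.0, 20.0 and 35.1 CPM in ICB and 22.6, 26.9, 43.8, 25.3 and 36.9 CPM in 5-FU tumors. These ranges overlap. In 5-FU+ICB tumors it was 52.5, 21.3, 23.5, 32.1 and 104 CPM, a log2 fold change of 1.62 ± 0.47 (edgeR adjusted p = 0.0102), although 1 tumor lay within the PBS range. Cisplatin tumors were at 14.2, 14.8, 13.2 and 8.17 CPM and Cisplatin+ICB tumors at 2.70, 13.0, 14.9, 15.1 and 26.2 CPM.

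Flt1, on the same chromosome (147561604 to 147726011), was higher with ICB. Its values were 11.0, 8.81, 27.1 and 15.6 CPM in PBS and 30.3, 68.5, 34.8, 34.0 and 39.2 CPM in ICB tumors, so that all ICB tumors lay above all PBS tumors. Flt1 thus rose by a log2 fold change of 1.47 ± 0.30 (edgeR adjusted p = 0.0014). In 5-FU tumors it was 22.4, 20.2, 32.9, 20.5 and 22.9 CPM, overlapping PBS tumor 3, with a log2 fold change of 0.65 ± 0.29 (edgeR adjusted p = 0.103; 0.0146 without PBS tumor 3 and up to 0.291 without another tumor). With 5-FU+ICB it was 49.3, 33.0, 39.8, 44.2 and 54.4 CPM, 1.55 ± 0.30 over PBS (edgeR adjusted p = 0.00118). Cisplatin+ICB tumors were at 8.32, 54.3, 28.1, 54.0 and 31.8 CPM; the log2 fold change over PBS was 1.19 ± 0.46 (edgeR adjusted p = 0.124), and 1.54 without Cisplatin+ICB tumor 1 (edgeR adjusted p = 0.00497), with edgeR adjusted p up to 0.290 without another tumor. Cisplatin tumors were at 23.9, 17.6, 23.5 and 10.6 CPM.

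Tek (chromosome 4, 94739289 to 94874976) rose with 5-FU and with 5-FU+ICB. PBS tumors had 3.73, 2.24, 4.26 and 3.82 CPM, and 5-FU tumors 6.25, 6.51, 16.5, 7.24 and 12.7 CPM, with no overlap. ICB tumors had 5.15, 7.28, 16.8, 3.32 and 8.31 CPM, of which tumor 4 fell within the PBS range. The log2 fold change was 1.51 ± 0.50 with 5-FU (edgeR adjusted p = 0.0348), 2.01 ± 0.51 with 5-FU+ICB (edgeR adjusted p = 0.0051) and 1.25 ± 0.49 with ICB (edgeR adjusted p = 0.0503). The 5-FU+ICB tumors had 16.8, 4.96, 9.20, 10.2 and 27.5 CPM, all above PBS. The call with 5-FU was lost without PBS tumor 1, 2 or 4 or 5-FU tumor 3 or 5 (edgeR adjusted p up to 0.115), and the difference with ICB passed without ICB tumor 1 or 4 (edgeR adjusted p down to 0.0240, and up to 0.177 without another tumor; 0.82 on the log2 scale without ICB tumor 3). It also passed with DESeq2 (1.31, adjusted p = 0.0251), and in edgeR with DESeq2 size factors (adjusted p = 0.0466), with at least 10 counts required in every tumor (0.0384) and with only the groups compared in the model (0.0333). Cisplatin tumors had 4.75, 3.20, 4.39 and 3.02 CPM and Cisplatin+ICB tumors 0.530, 4.15, 4.39, 4.89 and 9.39 CPM.

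Vwf, on chromosome 6 (125546774 to 125686679), had the largest log2 fold change of the 6 identity genes with ICB, 5-FU and 5-FU+ICB. It was at 1.62, 1.22, 2.49 and 4.29 CPM in PBS tumors and at 13.5, 6.76, 34.6, 14.1 and 24.1 CPM in 5-FU tumors. The lowest 5-FU tumor was above the highest PBS tumor. That is a log2 fold change of 2.98 ± 0.70 (edgeR adjusted p = 0.00859). ICB tumors had 5.79, 10.9, 22.3, 2.83 and 10.7 CPM, a log2 fold change of 2.16 ± 0.67 (edgeR adjusted p = 0.0166), with tumor 4 inside the PBS range. That call was lost without PBS tumor 1 (edgeR adjusted p = 0.0517), PBS tumor 2 (0.0559) or ICB tumor 3 (0.0515). Levels with 5-FU+ICB were 41, 4.93, 15.3, 17.7 and 48.6 CPM, 3.45 ± 0.71 above PBS on the log2 scale (edgeR adjusted p = 0.00173). Cisplatin tumors had 7.00, 2.97, 3.39 and 2.28 CPM and Cisplatin+ICB tumors 1.54, 7.72, 9.13, 8.79 and 15.7 CPM, with log2 fold changes of 0.70 ± 0.63 (edgeR adjusted p = 1.00) and 1.85 ± 0.63 (edgeR adjusted p = 0.082). The latter passed without Cisplatin+ICB tumor 1 (edgeR adjusted p = 0.00675) and in none of the other 8 omissions, which gave 1.51 to 2.28 (edgeR adjusted p up to 0.215).

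Vcam1 (chromosome 3, 116109949 to 116129688), the ligand of the integrin α4β1, was higher in every ICB-containing group and in 5-FU tumors. It was at 94.6, 93.2, 92.5 and 105 CPM in PBS, 317, 481, 396, 267 and 456 CPM in ICB and 176, 245, 631, 157 and 304 CPM in 5-FU tumors. No ICB or 5-FU tumor overlapped PBS. The 5-FU+ICB tumors had 617, 322, 574, 436 and 724 CPM. The log2 fold change over PBS was 2.02 ± 0.36 with ICB (edgeR adjusted p = 0.000698), 1.67 ± 0.35 with 5-FU (edgeR adjusted p = 0.00608) and 2.50 ± 0.37 with 5-FU+ICB (edgeR adjusted p = 0.000297). In Cisplatin+ICB tumors Vcam1 was at 85.5, 384, 131, 390 and 274 CPM, a log2 fold change of 1.41 ± 0.35 (edgeR adjusted p = 0.0298), with tumor 1 below PBS. This call was lost when any PBS tumor or Cisplatin+ICB tumor 2, 4 or 5 was left out, with edgeR adjusted p up to 0.103, and reached 0.00107 without tumor 1. Cisplatin tumors, at 126, 106, 109 and 120 CPM, lay just above all PBS tumors, but the log2 fold change was 0.27 ± 0.36 (edgeR adjusted p = 1.00).

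Icam1 (chromosome 9, 21015985 to 21028817), the ligand of the integrin LFA-1, showed the largest log2 fold change of the 10 genes with ICB. The 4 PBS tumors were nearly equal at 23.1, 23.5, 23.2 and 23.8 CPM. ICB tumors had 110, 190, 148, 94.2 and 164 CPM, and 5-FU tumors 40.4, 43.5, 124, 37.4 and 86.9 CPM, all above PBS. The log2 fold change was 2.62 ± 0.43 with ICB (edgeR adjusted p = 0.000465) and 1.52 ± 0.41 with 5-FU (edgeR adjusted p = 0.0152). Under 5-FU+ICB it was 189, 56.0, 129, 135 and 267 CPM, 2.76 ± 0.43 above PBS on the log2 scale (edgeR adjusted p = 0.000465). In Cisplatin+ICB tumors it was 18.1, 106, 38.2, 114 and 115 CPM and the log2 fold change was 1.76 ± 0.43 (edgeR adjusted p = 0.0274). That call too was lost without any PBS tumor or Cisplatin+ICB tumor 2, 4 or 5 (edgeR adjusted p up to 0.0973) and was stronger without tumor 1 (edgeR adjusted p = 0.000856). Cisplatin tumors had 33.7, 17.4, 21.1 and 31.2 CPM, on both sides of PBS. Antisense genes overlap Vcam1 (Gm43109) and Icam1 (Gm47079).

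Sele (chromosome 1, 164048234 to 164057677) was the adhesion gene with a negative log2 fold change under ICB. PBS tumors had 10.9, 11.6, 10.7 and 9.77 CPM and ICB tumors 9.57, 8.65, 7.74, 9.47 and 8.92 CPM. All ICB tumors lay below all PBS tumors, but the log2 fold change was -0.25 ± 0.29 (edgeR adjusted p = 0.484). With 5-FU, Sele was at 11.5, 18.8, 17.2, 14.4 and 31.8 CPM, where tumor 1 overlapped PBS, and with 5-FU+ICB at 33.5, 18.5, 13.7, 14.2 and 12.2 CPM, all above PBS. The log2 fold change was 0.81 ± 0.29 with 5-FU (edgeR adjusted p = 0.0471) and 0.79 ± 0.29 with 5-FU+ICB (edgeR adjusted p = 0.0350). Both calls were close to the threshold: the first was lost without any PBS tumor or 5-FU tumor 2, 3 or 5 (edgeR adjusted p up to 0.156, with a log2 fold change of 0.53 without tumor 5) and the second without any PBS tumor or 5-FU+ICB tumor 1 (up to 0.135, with a log2 fold change of 0.47 without that tumor). Cisplatin tumors had 7.97, 9.98, 10.1 and 9.89 CPM and Cisplatin+ICB tumors 7.32, 10.3, 7.90, 8.07 and 14.2 CPM.

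Selp (chromosome 1, 164115264 to 164150026), which lies near Sele, rose with 5-FU. PBS tumors had 1.78, 1.59, 1.55 and 3.09 CPM and 5-FU tumors 7.37, 4.85, 26.2, 11.1 and 23.6 CPM, so that the groups did not overlap. Selp thus had a log2 fold change of 2.88 ± 0.60 (edgeR adjusted p = 0.00585). In 5-FU+ICB tumors it was 25.1, 6.39, 14, 12.5 and 43.6 CPM, 3.37 ± 0.62 above PBS on the log2 scale (edgeR adjusted p = 0.00101). ICB tumors had 2.90, 5.28, 7.30, 2.10 and 5.67 CPM, of which tumors 1 and 4 were within the PBS range, with a log2 fold change of 1.24 ± 0.57 (edgeR adjusted p = 0.089). Cisplatin tumors had 5.34, 3.39, 3.09 and 3.14 CPM and Cisplatin+ICB tumors 0.583, 4.62, 5.75, 6.03 and 16.0 CPM. With Cisplatin+ICB the log2 fold change was 1.73 ± 0.60 (edgeR adjusted p = 0.0889). It was 2.10 without tumor 1 (edgeR adjusted p = 0.00354) and 1.10 without tumor 5 (edgeR adjusted p = 0.276), and no other omission gave a call. Genes on the opposite strand, Gm16587 and Gm16548, overlap Selp.

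**Figure D2:**
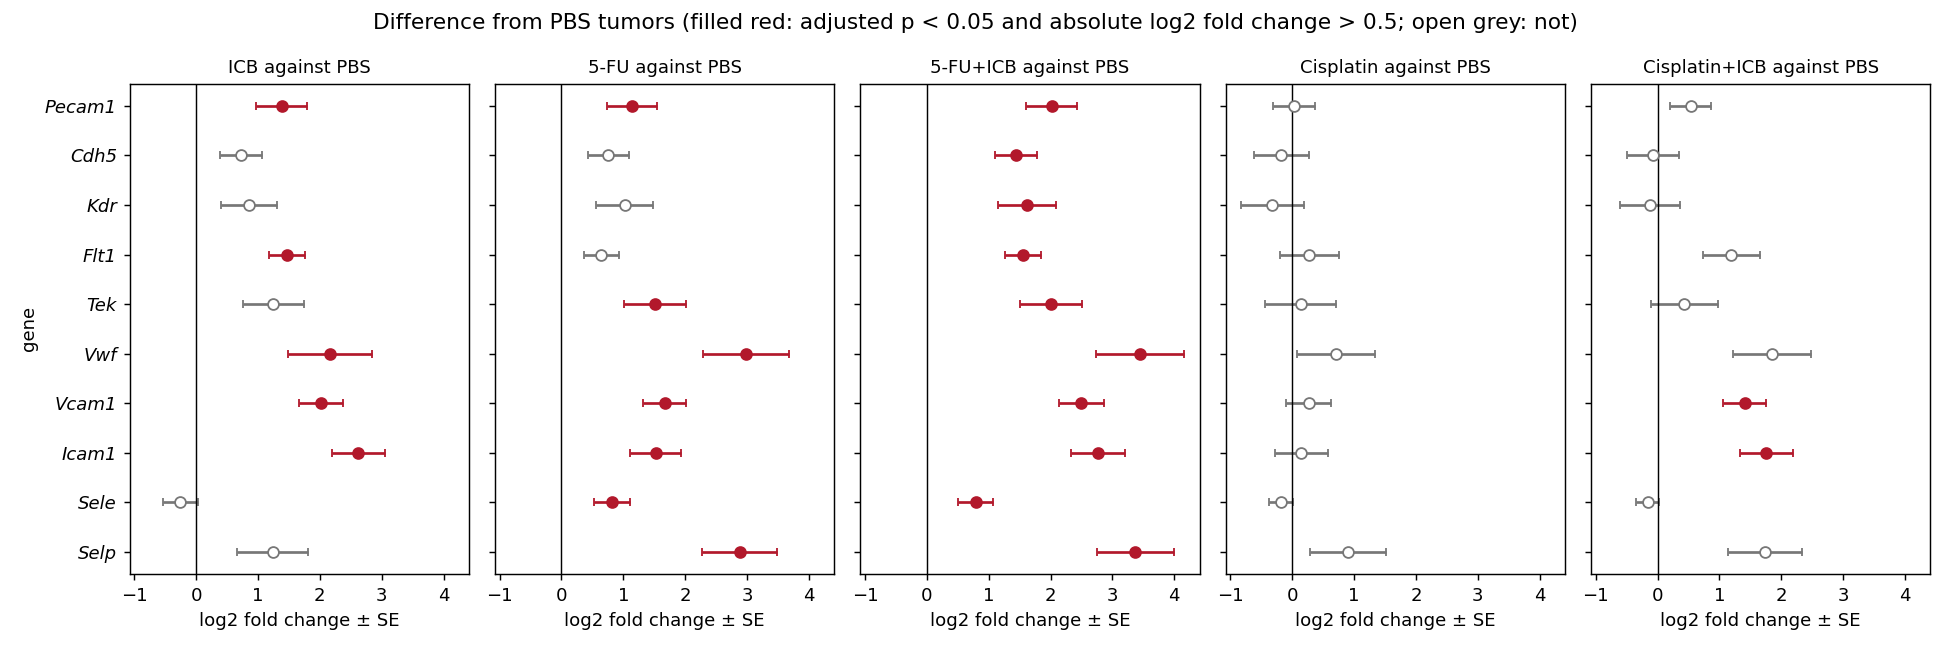
Log2 fold change of each gene from PBS tumors with its SE (x axis), by gene, in 5 comparisons, filled where the edgeR adjusted p was under 0.05 and the absolute log2 fold change over 0.5. In the panel of 5-FU+ICB all 10 genes are filled, from 0.79 for Sele to 3.45 for Vwf, and in that of Cisplatin none.

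Read by treatment, a gene was called when the edgeR adjusted p was under 0.05 and the absolute log2 fold change over 0.5. With ICB against PBS, 5 of 10 were called higher (Pecam1, Flt1, Vwf, Vcam1 and Icam1) and none lower, where 19.0% of the 17916 genes tested were called higher. The median log2 fold change of the 10 was 1.31, against -0.03 over all genes tested. Of the 10, 4 lay above PBS with no overlap and 1 below, against 15.8% and 21.6% of all genes. Leaving out 1 tumor gave 4 to 6 called. DESeq2 called 6 higher (18.6% of all genes), the other being Tek. With only the groups compared in the model, Selp also passed (edgeR adjusted p = 0.0263).

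With 5-FU against PBS, 7 of 10 were called higher (Pecam1, Tek, Vwf, Vcam1, Icam1, Sele and Selp) and none lower, where 9.98% of all genes were called higher. The median log2 fold change was 1.32, against -0.01 over all genes. All 4 adhesion genes were among the 7, and 6 of the 10 lay above PBS with no overlap (9.27% of all genes). The count fell to 4 without PBS tumor 1, 2 or 4 or without 5-FU tumor 3 or 5, where 1436 to 4243 of all genes were called in either direction, and to 3 when all 6 groups shared one model, where 825 were, against 4115 in the fit reported here. In that model Pecam1, Tek, Icam1 and Sele were the 4 lost (edgeR adjusted p = 0.0927, 0.0985, 0.0592 and 0.0797), and with no filter on low counts Pecam1 and Sele were lost (edgeR adjusted p = 0.0523 and 0.0600). Kdr passed with only the groups compared in the model (edgeR adjusted p = 0.0444). DESeq2 called 7 higher (13.6% of all genes). With 5-FU+ICB against PBS all 10 were called higher, where 21.9% of all genes were, and the median was 2.01 against -0.04. Of these, 9 had no overlap with PBS (10.9% of all genes were higher with no overlap). Leaving out 1 tumor gave 9 or 10 calls, DESeq2 called 10 higher (20.7% of all genes), and with only the groups compared in the model Sele was lost (edgeR adjusted p = 0.0573).

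Cisplatin alone gave no call among the 10 and none among the 17819 genes tested (0%) with edgeR; none of the 10 had an unadjusted p under 0.05 (1.78% of all genes), and DESeq2 called none of them (0.0114% of all genes). Cisplatin+ICB against PBS gave 2 calls, Vcam1 and Icam1, both higher, where 4.70% of all genes were called higher. The count was 6 without Cisplatin+ICB tumor 1, where 6277 of all genes were called in either direction, against 1087 with all tumors. It was 0 without any of the PBS tumors or without Cisplatin+ICB tumor 2, 4 or 5, where 0 to 790 genes were called. DESeq2 called 5 higher (8.70% of all genes), the other 3 being Flt1, Vwf and Selp. With only the groups compared in the model, Vcam1 and Icam1 were lost (edgeR adjusted p = 0.125 and 0.115).

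The combinations were next set against their single agents, which asks what each drug adds. For 5-FU+ICB against ICB, edgeR called none of the 10 (0.067% of all genes were called higher), 4 had an unadjusted p under 0.05 (10.9% of all genes) and DESeq2 called 2 higher (0.883%). The 2 were the selectins, Selp at 2.13 ± 0.53 (edgeR adjusted p = 0.107) and Sele at 1.04 ± 0.27 (edgeR adjusted p = 0.119) on the log2 scale. The lowest 5-FU+ICB tumor for Sele, at 12.2 CPM, was above the highest ICB tumor at 9.57 CPM. For 5-FU+ICB against 5-FU, edgeR called none (0.0112% of all genes were called higher), 5 had an unadjusted p under 0.05 (16.6%) and DESeq2 called 2 higher (2.46%). These were Icam1, at 1.24 ± 0.38 (edgeR adjusted p = 0.157), and Flt1, at 0.91 ± 0.27 (edgeR adjusted p = 0.154), for which all 5-FU+ICB tumors were above all 5-FU tumors. Without 5-FU tumor 3, edgeR called 3 of the 10 and 640 of all genes, and without 5-FU+ICB tumor 2 it called 2 and 1948, against 2 of all genes with every tumor kept.

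For Cisplatin+ICB against ICB, edgeR called none of the 10 and 0% of all genes, 2 had an unadjusted p under 0.05 (15.9%) and DESeq2 called none (0.26%). Those 2 were lower in the combination, Pecam1 at -0.83 ± 0.31 (edgeR adjusted p = 0.291) and Icam1 at -0.85 ± 0.39 (edgeR adjusted p = 0.304). For Cisplatin+ICB against Cisplatin, edgeR again called none (0% of all genes), 2 had an unadjusted p under 0.05 (14.2%) and DESeq2 called 2 higher (3.83%). By either measure they were Icam1 at 1.61 ± 0.43 (edgeR adjusted p = 0.0987) and Vcam1 at 1.14 ± 0.35 (edgeR adjusted p = 0.142). Without Cisplatin+ICB tumor 1, edgeR called 4 of the 10 and 2114 of all genes, and without tumor 3 it called 2 and 536.

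The drugs were also compared with each other. For 5-FU against Cisplatin none of the 10 was called by edgeR (0.0918% of all genes were called higher), 9 had an unadjusted p under 0.05 (15.5%) and DESeq2 called 4 higher (2.70%). In 7 of the 10 every 5-FU tumor was above every Cisplatin tumor, against 5.29% of all genes. Vcam1 differed by 1.39 ± 0.39 (edgeR adjusted p = 0.105), Sele by 0.98 ± 0.28 (edgeR adjusted p = 0.105) and Vwf by 2.25 ± 0.67 (edgeR adjusted p = 0.114). For 5-FU+ICB against Cisplatin+ICB none was called by edgeR (0.103% of all genes were called higher), 9 had an unadjusted p under 0.05 (25.7%) and DESeq2 called 6 higher (3.38%). Cdh5 differed by 1.48 ± 0.39 with no overlap and Pecam1 by 1.46 ± 0.38 with overlap (edgeR adjusted p = 0.0631 for each), and Flt1 by 0.32 ± 0.36 (edgeR adjusted p = 0.587). Over all genes 55 were called in either direction. Without 5-FU+ICB tumor 2 edgeR called 8 of the 10 (2146 of all genes), without Cisplatin+ICB tumor 5 it called 6 (1128) and without 5-FU+ICB tumor 4 it called 2 (303).

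Whether 5-FU and ICB together differed from the sum of their log2 effects was tested by the interaction. None of the 10 passed with edgeR (0.0893% of all genes were called in either direction) or DESeq2 (9.57%). An unadjusted p under 0.05 was found for 2 (23.9% of all genes), Vcam1 at -1.19 ± 0.47 (edgeR adjusted p = 0.134) and Icam1 at -1.38 ± 0.55 (edgeR adjusted p = 0.135). For cisplatin with ICB none of the 10 passed with edgeR (0% of all genes) or DESeq2 (0.00285%), or had an unadjusted p under 0.05 (7.14%).

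The adhesion genes were then expressed relative to Cdh5 in the same tumor, as log2 CPM minus log2 CPM of Cdh5, a description with no test. Because Vcam1 and Icam1 are also expressed by other cells, such values are not levels per endothelial cell. For Icam1 the values were -0.08, 0.34, -1.13 and -0.59 in PBS tumors and 1.69, 1.85, 1.09, 1.17 and 1.44 in ICB tumors. All ICB tumors lay above all PBS tumors, so Icam1 differed between these groups by more than Cdh5 did. For Vcam1 the means were 1.68 ± 0.62 in PBS (SD, n = 4), 2.90 ± 0.31 in ICB and 3.08 ± 0.73 in Cisplatin+ICB tumors (SD, n = 5 each). The lowest Cisplatin+ICB tumor, at 2.05, was below the highest PBS tumor, at 2.33. Sele went the other way, from -1.48 ± 0.70 in PBS to -2.49 ± 0.53 in ICB tumors, with overlap (-2.23 to -0.68 and -3.16 to -1.82). Selp stood at -3.92 ± 0.71 in PBS, -3.55 ± 0.42 in ICB and -2.11 ± 0.73 in 5-FU tumors. It was also above the PBS mean in 5-FU+ICB (-2.23 ± 0.57), Cisplatin (-2.90 ± 0.54) and Cisplatin+ICB tumors (-2.51 ± 0.65).

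**Figure D3:**
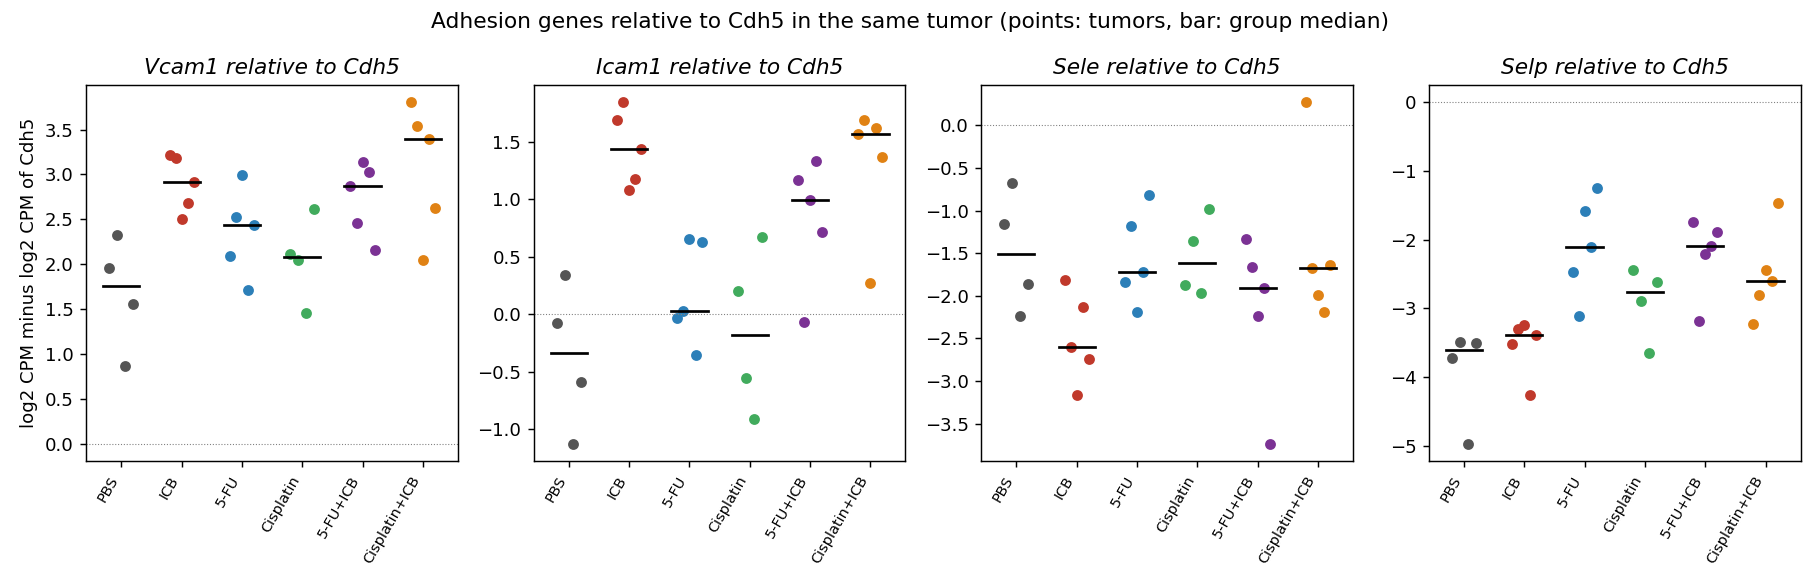
Log2 CPM of each adhesion gene minus log2 CPM of Cdh5 in the same tumor (y axis) by treatment group, one point per tumor with a bar at the median. Icam1 runs from -1.13 to 0.34 in PBS and from 1.09 to 1.85 in ICB tumors, and the medians of Selp are highest in the 2 groups given 5-FU.

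Correlations within groups differed between the genes. With group means removed from log2 CPM, Pearson's r over the 28 tumors was 0.62 to 0.94 for the 15 pairs of the 6 identity genes, with a median of 0.85. Without Cisplatin+ICB tumor 1 the range was 0.39 to 0.92, and the lowest pair, Flt1 with Tek, went from 0.68 to 0.39. Vcam1 and Icam1 had r = 0.93, and Selp had r = 0.94 with Tek and 0.92 with Vwf. Sele had r of 0.08 to 0.27 with the other 9 genes, and of -0.09 to 0.19 without Cisplatin+ICB tumor 1, with the sign changed for Cdh5 and Flt1. These values describe 28 tumors whose genes share a library and its composition.

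**Figure D4:**
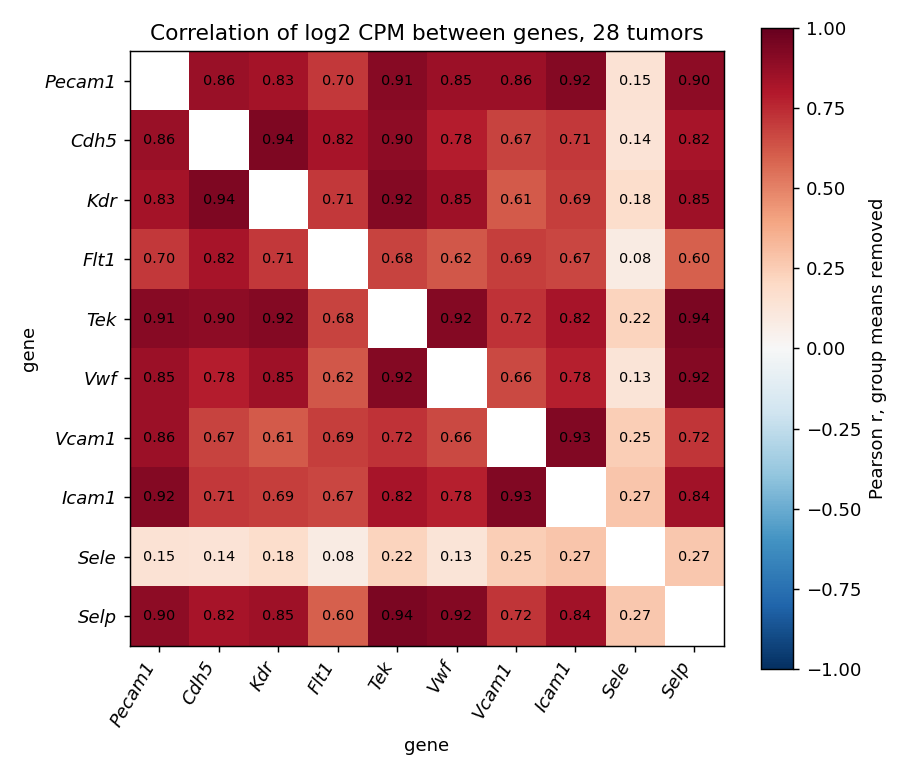
Pearson's r between the log2 CPM of each pair of the 10 genes over 28 tumors, with group means removed, from blue (-1) through white (0) to red (1). All 28 tumors are included. The row of Sele holds values of 0.08 to 0.27, while Cdh5 and Kdr reach 0.94.

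The genes most like each one were sought in the same way among 14414 genes with a mean of at least 1 CPM. For Pecam1 the first was Plvap (r = 0.97, Spearman's rho = 0.97), a protein of endothelial diaphragms, then Shisa5 and Chmp1b. For Cdh5 it was Tie1 (r = 0.97), an endothelial receptor related to TIE2, then Jak1 and Adgrf5. Kdr was most like Podxl (r = 0.96), Fam102a and Ets1, Flt1 most like Nfe2l1 (r = 0.93), Jag1 and Itpr2, and Tek most like Ablim3 (r = 0.96), Prrg3 and Cdh13. Vwf had Zfp521 (r = 0.96), Pbxip1 and Trp53inp2. For Vcam1 the nearest were Scimp (r = 0.96), Ctsz and Prf1, the gene of perforin, and for Icam1 they were Psd4 (r = 0.98), Slamf7 and Gpr132. For Selp they were Dyrk1b, Tek and Ehd3, each with r = 0.94. Sele had weaker neighbors, Arl5b (r = 0.83), Itpkc (r = 0.82) and Nfkbiz (r = 0.79), the gene of an NF-kB regulator induced by inflammatory signals. By rank these were weaker still, with Spearman's rho of 0.72, 0.69 and 0.55. Without Cisplatin+ICB tumor 1, r was 0.85, 0.81 and 0.78 for these 3.

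Other endothelial markers were tested in the same way. Of 20, 8 were called higher and 1 lower with ICB (median log2 fold change 0.77), 4 higher with 5-FU (0.69), 16 higher and 1 lower with 5-FU+ICB (1.5) and none with Cisplatin+ICB (0.20). Over all genes tested, 19.0% were called higher with ICB, 9.98% with 5-FU, 21.9% with 5-FU+ICB and 4.70% with Cisplatin+ICB. The shares called lower were 18.8% with ICB and 18.7% with 5-FU+ICB. Eng, a TGF-beta co-receptor, was higher by 1.81 ± 0.38 with ICB (edgeR adjusted p = 0.0017) and Cd93 by 1.63 ± 0.33 (edgeR adjusted p = 0.0013). Cldn5, a tight junction protein, was not called with 5-FU+ICB, at 1.51 ± 0.64 (edgeR adjusted p = 0.062). The lower marker was Cd34 in both, at -1.19 ± 0.32 with ICB (edgeR adjusted p = 0.0081) and -1.32 ± 0.33 with 5-FU+ICB (edgeR adjusted p = 0.0044), and its mean was 1129 ± 288 CPM in PBS tumors (SD, n = 4), far above the other markers of the list.

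Ligands and co-receptors of the VEGF and angiopoietin receptors were counted next. Of 8, 3 were called higher with ICB, 1 with 5-FU, and 2 higher and 1 lower with 5-FU+ICB. The share of all genes called higher was 19.0% with ICB, 9.98% with 5-FU and 21.9% with 5-FU+ICB. With 5-FU+ICB 18.7% were called lower. Angpt1, the activating ligand of TIE2, was higher in all 3, by 1.03 ± 0.38, 1.31 ± 0.39 and 1.83 ± 0.39 (edgeR adjusted p = 0.039, 0.022 and 0.0022). Vegfa, the main ligand of VEGFR2, was not called in any of them, with log2 fold changes of 0.57 ± 0.33, -0.62 ± 0.33 and -0.45 ± 0.33. Of 5 genes of sprouting endothelium, 1 was called higher with ICB and none with 5-FU, and with 5-FU+ICB 2 were higher and 1, Apln, was lower (-1.51 ± 0.41, edgeR adjusted p = 0.0079). Of 6 junction and transmigration genes tested, 1 was called with ICB, 1 with 5-FU and 4 with 5-FU+ICB, all higher. Among them Cd47 was higher by 0.92 ± 0.22 with ICB (edgeR adjusted p = 0.0034) and 1.20 ± 0.22 with 5-FU+ICB (edgeR adjusted p = 0.00098). Counts of 1 in lists this short are not read as a difference from the shares of all genes.

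Counter-receptors on leukocytes bind the adhesion molecules. Of 11, 7 were called higher with ICB, 3 with 5-FU, 9 with 5-FU+ICB and 4 with Cisplatin+ICB. Among all genes tested, the shares called higher were 19.0%, 9.98%, 21.9% and 4.70% in the same order. Itgal, the LFA-1 chain that binds ICAM-1, was higher by 3.86 ± 0.61 with ICB (edgeR adjusted p = 0.00037) and 2.52 ± 0.57 with 5-FU (edgeR adjusted p = 0.0076), and Itga4, the chain that binds VCAM-1, by 1.78 ± 0.35 with ICB (edgeR adjusted p = 0.0012). Selplg was higher by 2.07 ± 0.51 with ICB (edgeR adjusted p = 0.0044). Of 8 cytokines known to act on adhesion molecules, 4 (Tnf, Lta, Ltb and Il1b) met the level of the filter in all PBS tumors. Of these, 4 were called higher with ICB, 2 with 5-FU, 3 with 5-FU+ICB and 2 with Cisplatin+ICB. Tnf was higher by 3.36 ± 0.53 with ICB (edgeR adjusted p = 0.00037) and 2.43 ± 0.51 with 5-FU (edgeR adjusted p = 0.0057). Ifng, which met the level in 3 of 4 PBS tumors and is given by its levels only, had means of 0.343 CPM in PBS, 13.1 CPM in ICB and 2.24 CPM in 5-FU tumors.

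Markers of other cells were counted in the same comparisons. There, 19.0% of all genes were called higher with ICB, 9.98% with 5-FU, 21.9% with 5-FU+ICB and 4.70% with Cisplatin+ICB. The shares called lower were 18.8% with ICB and 18.7% with 5-FU+ICB. Of 10 leukocyte markers, 9 were called higher with ICB, 4 with 5-FU, 5 with 5-FU+ICB and 5 with Cisplatin+ICB. Their summed level ran from 1698 to 4623 CPM in PBS, 4716 to 14360 CPM in ICB, 1831 to 9359 CPM in 5-FU, 1639 to 3783 CPM in Cisplatin, 1431 to 11194 CPM in 5-FU+ICB and 2440 to 9664 CPM in Cisplatin+ICB tumors. Of the 7 platelet and megakaryocyte markers, 3 met the level of the filter in all PBS tumors. Of these, Pf4 was called higher with ICB, 5-FU, 5-FU+ICB and Cisplatin+ICB, Gp1bb was called lower with ICB and 5-FU+ICB, and Itga2b was not called. The sum of the 7 ran from 8.60 to 14.8 CPM in PBS, 8.53 to 75.2 CPM in ICB, 22.6 to 78.3 CPM in 5-FU, 25.9 to 130 CPM in 5-FU+ICB, 10.6 to 15.4 CPM in Cisplatin and 12.9 to 58.9 CPM in Cisplatin+ICB tumors. Pf4, platelet factor 4, had the highest mean of the list in each of these groups, at 5.58, 27.2, 33.1, 71.1, 5.77 and 25.9 CPM, while Ppbp and Gp9 were near the floor in PBS (means of 0.16 and 0.17 CPM).

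Beside the counts that follow, 19.0% of all genes were called higher with ICB, 9.98% with 5-FU, 21.9% with 5-FU+ICB and 4.70% with Cisplatin+ICB. Mural cell markers had 2 of 8 called higher with ICB, 2 with 5-FU and 5 with 5-FU+ICB, and their sum ran from 114 to 226 CPM in PBS, 132 to 306 CPM in ICB, 168 to 352 CPM in 5-FU and 201 to 859 CPM in 5-FU+ICB tumors. Of 5 lymphatic endothelial markers, 3 met the level of the filter in all PBS tumors. Of these, Lyve1 was called higher with ICB, 5-FU and Cisplatin+ICB, and all 3 with 5-FU+ICB. Prox1, the factor that defines lymphatic identity, and Mmrn1 met it in no PBS tumor and were tested only through other groups, so that their calls are not counted here. Prox1 had a mean of 0.06 CPM in PBS and 2.10 CPM in 5-FU+ICB tumors. Of 6 fibroblast markers, none was called with ICB, 5 with 5-FU and 2 with 5-FU+ICB. Skeletal muscle markers had no call and a sum between 88.0 and 153 CPM in PBS and between 0.731 and 2910 CPM in ICB tumors. The 7 mesothelial tumor markers had a sum of 273 to 362 CPM in PBS, 54.8 to 219 CPM in ICB, 47.1 to 179 CPM in 5-FU, 38.0 to 170 CPM in 5-FU+ICB, 216 to 310 CPM in Cisplatin and 133 to 665 CPM in Cisplatin+ICB tumors. In the ICB, 5-FU and 5-FU+ICB groups all tumors were below all PBS tumors for this sum. Msln, which had the highest level of the list in PBS, differed by -1.51 ± 0.76 with ICB (edgeR adjusted p = 0.117), -1.54 ± 0.76 with 5-FU (edgeR adjusted p = 0.136) and -2.28 ± 0.77 with 5-FU+ICB (edgeR adjusted p = 0.0238). Krt8, the other marker that met the level of the filter in all PBS tumors, was not called. Wt1, with means of 0.11 CPM in PBS and 0.93 CPM in ICB tumors, met it in no PBS tumor, and its calls, like those of Krt19 and Calb2, are not counted. The part of any of these cells in the differences of the 10 genes was not tested.

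**Figure D5:**
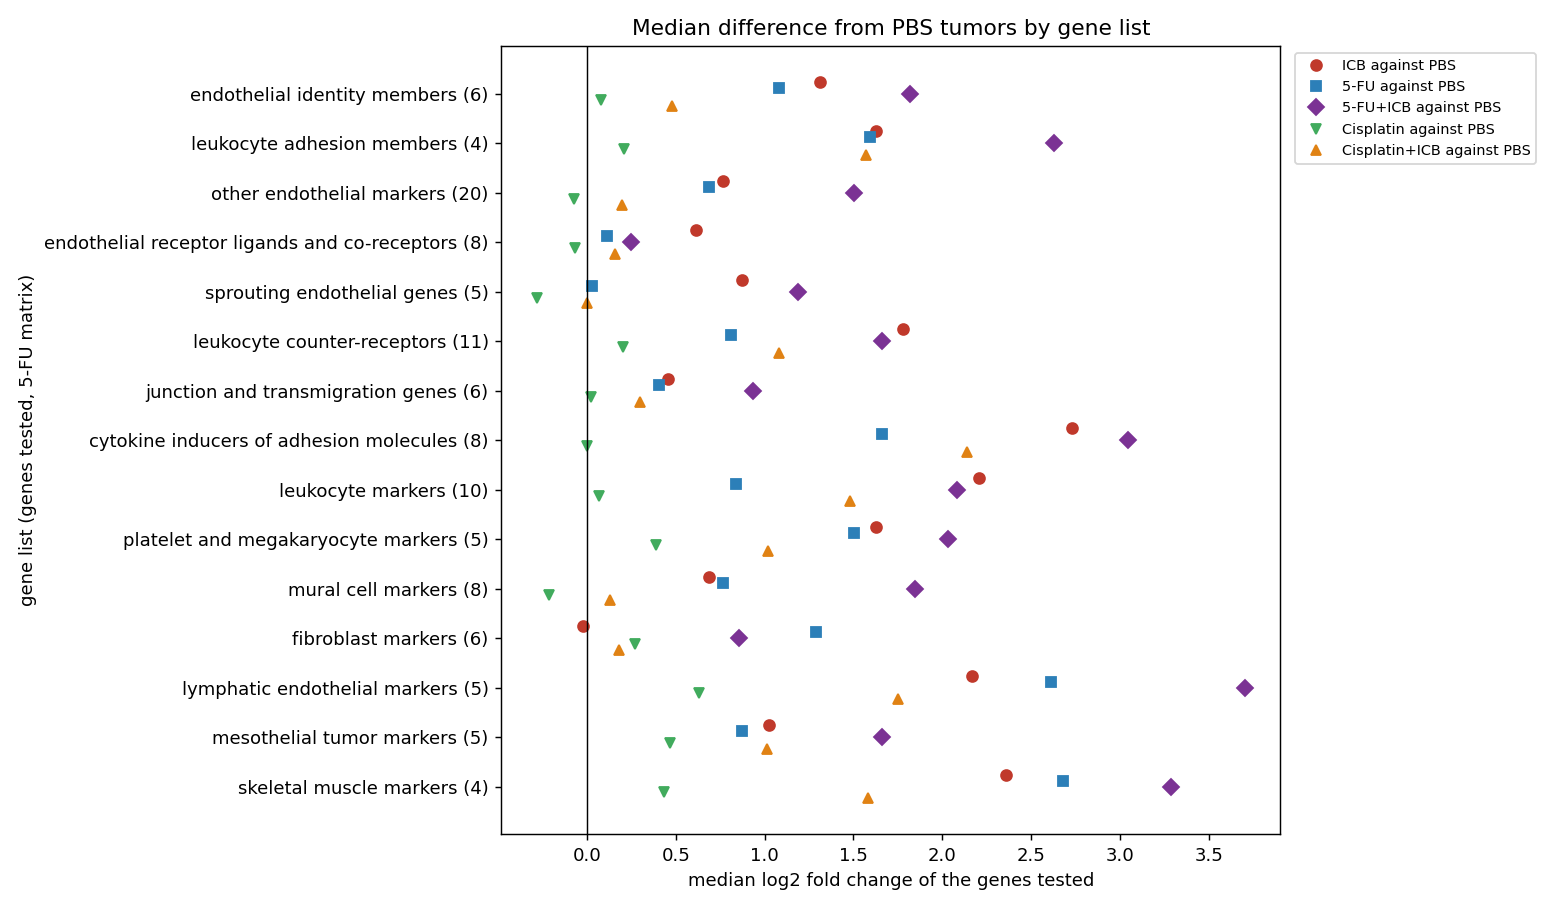
Median log2 fold change from PBS tumors (x axis) of the genes tested in each list (y axis, with the number tested), by comparison. With Cisplatin alone the list medians lie between -0.28 and 0.63, and those with 5-FU+ICB reach 3.70 for the lymphatic endothelial markers (2.02 over the 3 that met the level of the filter in all PBS tumors). The medians of the cytokine, platelet, lymphatic and mesothelial lists include genes that did not.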

How the data were processed

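Members and gene lists were chosen with earlier results of these data known. Per the labels and methods, the authors extracted RNA from whole frozen tumors, sequenced 100-base single ends and mapped reads with kallisto (version 0.46.0 in the submitters' processing notes) to GRCm38/mm10. They removed low-count transcripts and compiled gene tables of estimated counts with tximport, 1 for the 5-FU groups and 1 for the Cisplatin groups, both holding the PBS and ICB tumors. Strand use in counting is not given in the sources used here.

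The deposited estimated counts (23.7% not whole) were rounded. Groups came from the sample labels. Each table was fitted across its 4 groups, and both were joined for comparisons between drugs, with edgeR 4.0.16 (filterByExpr, TMM, quasi-likelihood test, Benjamini-Hochberg adjustment over all genes tested) in R 4.3.3, called at adjusted p under 0.05 and absolute log2 fold change over 0.5. CPM used TMM library sizes of the joined table, with a prior count of 2 for log2. DESeq2 1.42.0, other scalings, filters, models and leaving out each tumor were alternatives. All 10 genes were named. Of each list, genes with the largest called changes and the most abundant uncalled were to be named. This was followed only in part, and no gene of the leukocyte, mural, fibroblast or skeletal muscle lists was named. On simulated counts for ICB against PBS, 200 genes were changed by 2 log2 units, 196 of them passed the filter and 154 of these (78.6%) were called. Positions are from GENCODE, GRCm38. P-values measure the spread between mice.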

Additional observations from a re-analysis of the deposited data

Results flagged for a closer look

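Values lying apart from the rest of their group of 4 or 5 tumors, by the gap to the nearest tumor relative to the range (Dixon's 95% value), were found in 7 of 60 sets of 1 gene and 1 group. The sets share tumors and hold CPM on an unlogged scale, so no rate by chance is set beside this count. Cdh5 was at 162 CPM in 5-FU+ICB tumor 5, where the next was 84.1 CPM. Flt1 was at 68.5 CPM in ICB tumor 2 (next 39.2) and at 32.9 CPM in 5-FU tumor 3 (next 22.9). Vcam1 was at 105 CPM in PBS tumor 4 (next 94.6). Selp was at 3.09 CPM in PBS tumor 4 (next 1.78) and at 5.34 CPM in Cisplatin tumor 1 (next 3.39), and Sele was low, at 7.97 CPM, in Cisplatin tumor 1 (next 9.89).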

How the results depend on the processing

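With DESeq2 the number of the 10 genes called was 2 for 5-FU+ICB against ICB and for 5-FU+ICB against 5-FU, 5 for Cisplatin+ICB against PBS, 2 for Cisplatin+ICB against Cisplatin, 4 for 5-FU against Cisplatin and 6 for 5-FU+ICB against Cisplatin+ICB. With all 6 groups in one model 5-FU against PBS gave 3. With only the groups compared in the model, Cisplatin+ICB against PBS gave 0, where 0 of all genes were called against 1087 in the main fit. In that setting 5-FU against Cisplatin gave 5, where 943 of all genes were called against 67 in the main fit. Leaving out each tumor in turn gave 4 to 7 genes for 5-FU against PBS, 0 to 3 for 5-FU+ICB against 5-FU, 0 to 6 for Cisplatin+ICB against PBS, 0 to 4 for Cisplatin+ICB against Cisplatin and 0 to 8 for 5-FU+ICB against Cisplatin+ICB. The tumor numbers do not pair the samples: same-numbered tumors had a median correlation of deviations of -0.02 in the 5-FU table and -0.08 in the Cisplatin table. With the tumor number as a replicate block, Cisplatin+ICB against PBS gave 0 of the 10, where 95 of all genes were called against 1087 without it. With that block 5-FU against PBS lost Pecam1 and Sele (edgeR adjusted p = 0.0789 and 0.0932). The mean level of Icam1 in PBS was 22.5 CPM by total counts and 22.2 CPM by DESeq2 size factors. Relative to the mean of 5 endothelial genes in place of Cdh5, ICB minus PBS was 0.88 for Vcam1 and 1.47 for Icam1. The cause of these changes was not tested. Of 130 differences of a gene in a comparison, 21 changed sign under at least 1 alternative and are given no value in the text. None of them was called, and they ranged from 0.02 to 0.51 in absolute log2 fold change. With 4 or 5 tumors a group, log2 fold changes of up to 1.85 against PBS among the 10 genes (Vwf, Cisplatin+ICB) did not pass the test.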
